A study of Mus musculus with 8 samples.

Results

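Clustered autosomal YY1 sites are peaks of the transcription factor YY1 on chromosomes 1 to 19 that lie less than 100 kb from another autosomal peak. They were taken from 1 list of YY1 peaks in C2C12 myoblasts. A gap is the start of a peak minus the end of the peak before it, and successive peaks with gaps under 100 kb form a run. By this rule 536 of 1754 autosomal peaks (30.6%) were clustered, in 220 runs, and 1218 were not. The whole list held 1820 peaks. Left out were 49 peaks on the X chromosome, 13 on the mitochondrial genome and a block of 4 on chromosome 17 (chr17:39979961-39985756). All positions are in the mouse build mm9.

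YY1 (Yin Yang 1) is a zinc-finger protein that can activate or repress the genes it binds. It binds near transcription start sites and at enhancers, and is known for joining enhancers to promoters and for recruiting Polycomb proteins such as Ezh2. In myoblasts it is known as a repressor of muscle genes that are switched on when the cells fuse.

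C2C12 is an established mouse line of muscle precursor cells, here proliferating myoblasts kept in DMEM with fetal bovine serum. Chromatin was sonicated to 100 to 300 nt and immunoprecipitated with a YY1 antibody, SC-1703 from Santa Cruz in 1 sample and AB58066 from Abcam in the other. Both samples carry the same file byte for byte, so it was counted as 1 list and the antibodies cannot be told apart. The series has 8 samples in 8 groups. The YY1 sample from myotubes, the IgG controls and the Ezh2, H3K4me3 and H3K27me3 samples were not analysed here.

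Each peak comes with a position and the −log10 of its q-value, which ranks how surely the peak was called and is not a level of binding. The read depth is unknown. The members were chosen by where peaks were called, and widths and significance stem from that same calling, so all values below are descriptions without a test. No sequence or gene name is given, because the reference tables used here are on another build.

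Most runs were pairs. Of the 220 runs, 174 held 2 peaks, 27 held 3, 6 held 4 and 13 held 5 or more. Runs of 2 accounted for 348 of the 536 clustered peaks (64.9%), and runs of 5 or more for 83 (15.5%). The longest run had 13 peaks. The median run spanned 50.7 kb, and spans went from 0.399 to 396 kb.

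Most neighbours lay well over 10 kb apart. Among the 316 neighbouring pairs inside runs, 252 (79.7%) had a gap from 10 to 100 kb, 32 had a gap from 1 to 10 kb and 32 a gap under 1 kb. The median gap was 32.6 kb (interquartile range 13.2 to 65.9 kb). The smallest gap was 56 bp, so no clustered peaks overlapped.

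Per unit of distance, the shortest gaps were the densest. There were 15 pairs with gaps under 200 bp, or 75 per kb of gap. Gaps from 2 to 5 kb gave 15 pairs, or 5 per kb, and gaps from 50 to 100 kb gave 117 pairs, or 2.34 per kb. The density did not decline steadily between these classes, with 2.4 pairs per kb from 5 to 10 kb, 3.9 from 10 to 20 kb and 3.2 from 20 to 50 kb. Beyond the limit of the rule it was 1.99 from 100 to 200 kb.

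**Figure D1:**
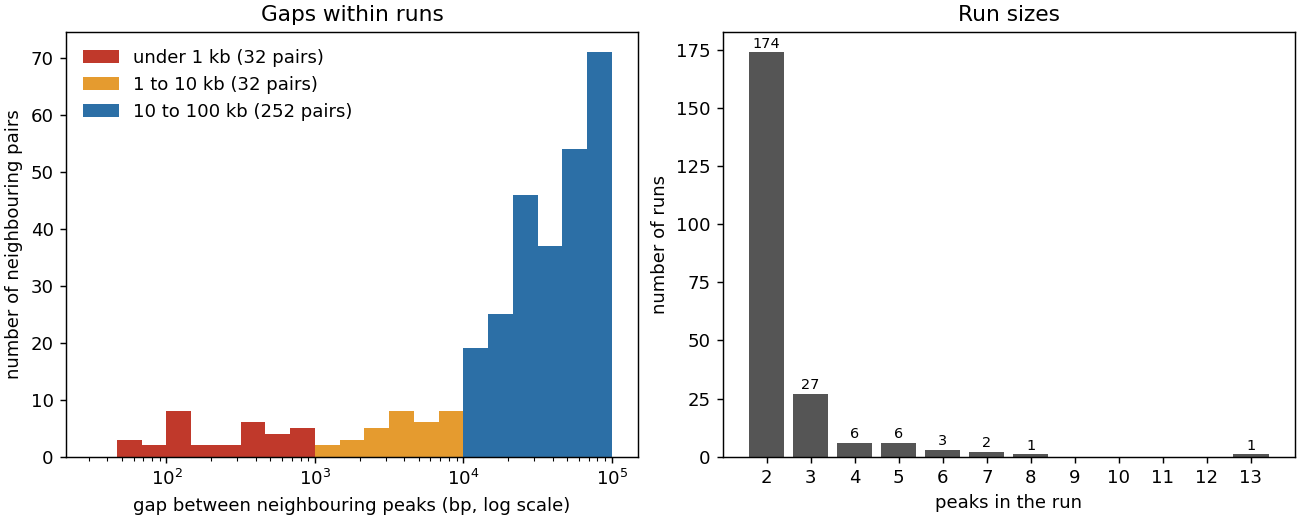
The left panel plots the number of neighbouring pairs against the gap in bp on a log axis, coloured by gap class, and the right panel the number of runs against peaks per run. The 10 to 100 kb class holds 252 of 316 pairs, and 174 of 220 runs have 2 peaks.

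A run of 2 has a single gap. Among the 174 such runs, it was from 10 to 100 kb in 143, from 1 to 10 kb in 19 and under 1 kb in 12. Of the 46 runs of 3 or more, 23 had gaps from 10 to 100 kb alone, and 22 mixed gap classes. A gap under 1 kb beside a gap over 10 kb occurred in 15 runs with 71 peaks. Formed with a limit of 1 kb, runs took in 62 peaks in 30 runs, of which 28 were pairs and 2 were triplets. The left-out chromosome 17 block, itself a run of 4 peaks with gaps under 1 kb, is not counted here. With a limit of 10 kb there were 122 peaks in 58 runs, the largest with 4 peaks.

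The limit of 100 kb fell in a continuous range of gaps. Just inside it were the pairs that end at chr17:34356834-34356941 (gap 99.9 kb), chr13:23622663-23622849 (99.6 kb) and chr4:141000541-141000733 (99.1 kb). Just outside were those that end at chr6:38484070-38484305 (100.003 kb), chr6:82602571-82602699 (100.2 kb) and chr15:80064494-80064625 (100.8 kb). A pair outside the limit can still hold clustered peaks. Both chr6:38484070-38484305 and chr15:80064494-80064625 were clustered through a closer neighbour on their other side. The −log10 q of the 12 peaks in the pairs inside and outside ran from 5.67 to 62.68.

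Clustered peaks ranged from the weakest to some of the strongest on the autosomes. Their −log10 q ran from 5.01 to 405.96, with a median of 15.93 (interquartile range 7.57 to 43.4). The median was 8.84 (5.67 to 26.0) for autosomal peaks that were not clustered and 10.49 for all autosomal peaks. The peak with the highest value of the list, 513.08, was not clustered.

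A −log10 q of 20 or more was held by 225 clustered peaks (42.0%), against 33.3% of all autosomal peaks. For 50 or more it was 123 clustered peaks (22.9%) against 17.3%. For 100 or more it was 60 (11.2%) against 9.35%. Since position, −log10 q and membership come from 1 call, nothing is read from these shares.

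The clustered share was lowest among the weakest peaks. Of 813 autosomal peaks with a −log10 q under 10, 177 were clustered (21.8%). From 10 to 20 the share was 37.5% (134 of 357), and from 20 to 50 it was 36.4% (102 of 280). From 50 to 100 it was 45% (63 of 140), and at 100 and over 36.6% (60 of 164).

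The median width of clustered peaks was 201 bp (99 to 793 bp) against 161.5 bp for peaks that were not clustered. Within the same 5 classes of −log10 q the median of clustered peaks differed from that of the others by −5 to 9 bp, and it was the larger in 4 of the 5. In the weakest class the medians were 133 and 125 bp, and in the strongest 420 and 411 bp.

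The strongest peaks were most frequent in the longest runs. The median −log10 q was 13.9 in runs of 2, 15.93 in runs of 3 or 4 and 28.01 in runs of 5 or more. A value of 100 or more was reached by 27 of 348 peaks in runs of 2 (7.76%). In runs of 3 or 4 it was 11 of 105 (10.5%), and in runs of 5 or more 22 of 83 (26.5%). The share was 9.35% among all autosomal peaks and 8.54% among those not clustered. Runs of 2 lay below both shares, and runs of 3 or 4 little above them. Runs of 5 or more held 36.7% of the clustered peaks at or above 100, and 15.5% of all clustered peaks. Weak peaks occurred in runs of every size, and 18 of the 83 peaks in the longest runs were under 10.

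**Figure D2:**
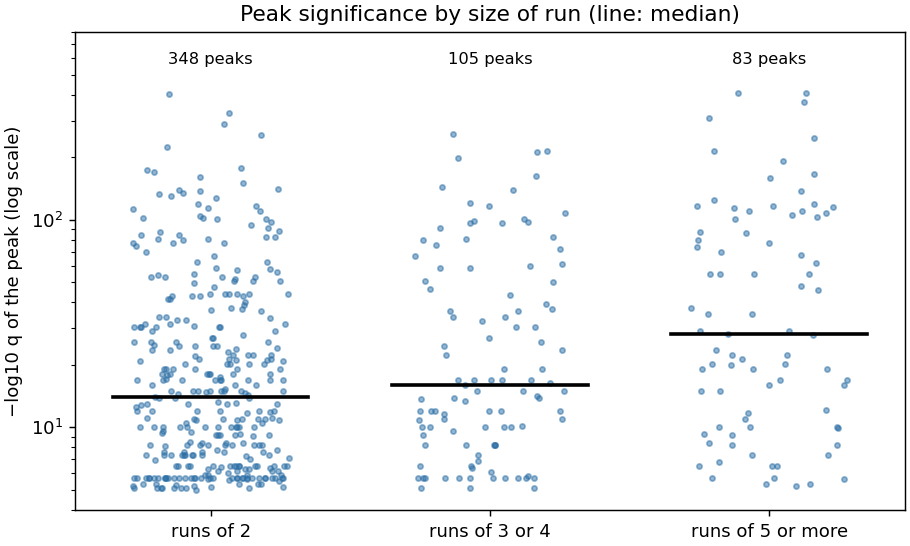
Each point is 1 clustered peak, with its −log10 q on a log axis, grouped by the number of peaks in its run, and the black line is the median. The median goes from 13.9 in runs of 2 to 28.01 in runs of 5 or more, and all 3 groups reach down to values near 5.

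Runs of 5 or more peaks lay on 7 chromosomes: 4 on chromosome 17, 3 on chromosome 7, 2 on chromosome 8 and 1 each on chromosomes 1, 11, 13 and 14. They had from 1.77 to 6.41 peaks per 100 kb. The peaks themselves covered from 0.475 to 1.71% of each run. Of the 13 runs, 9 held at least 1 peak at or above 100, and 7 held at least 2.

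The longest run, chr1:172994639-173341572, spanned 347 kb. From its start to its end the 13 peaks had −log10 q values of 16.96, 9.3, 45.89, 22.34, 405.96, 119.23, 73.96, 54.49, 166.54, 79.74, 5.67, 15.93 and 109.85. In its middle, 6 successive peaks from chr1:173152326-173152853 to chr1:173259079-173259498 were all above 50. Outside this stretch, 1 peak was above 50, the last of the run with 109.85, and the other 6 were between 5.67 and 45.89.

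Chromosome 7 had strong runs and a weak one. In chr7:52104230-52241763 the values were 192.12, 116.09, 114.53, 67.44 and 11. The first 4 of these fell within 47.3 kb and the last lay 90.1 kb further on. In chr7:134519487-134655925 the 8 peaks had values of 115.48, 47.86, 100.62, 105.21, 54.49, 76.84, 9.15 and 7.37, with the 2 weak ones side by side at the end. In chr7:80669355-80763592 they were 69.69, 37.65, 8.24, 8.24, 6.51 and 6.51, in descending order along the chromosome. That run stood alone, with the nearest other peaks 6218 kb before and 5164 kb after it.

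Both long runs on chromosome 8 had 5 peaks and differed in strength. In chr8:87188792-87381063 the values were 109.85, 116.09, 23.46, 35.18 and 370.26. Here the strong peaks were at the ends and the weaker ones between them. In chr8:19892981-20036513 they were 12.11, 5.33, 10.06, 62.09 and 5.63, so a single peak stood out. A pair with the peak chr8:19784427-19785032 (327.19) lay 108 kb before this run.

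The runs on chromosomes 13 and 14 each held 2 peaks above 100. In chr13:55637837-55816176 the values were 7.37, 35.18, 19.06, 136.82 and 246.99, and the 2 strongest were the last. In chr14:54980311-55305523 they were 307.93, 21.24, 29.19, 28.01, 405.96, 10.05 and 15.93. There 3 peaks under 30 separated the 2 strong ones.

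The 4 long runs on chromosome 17 had highest values from 22.34 to 214.83. In chr17:33102653-33229516 the values were 19.06, 54.77, 19.06, 158.19 and 86.06. In chr17:33961260-34356941, the run with the widest span, they were 27.86, 108.3, 123.98, 6.51, 214.83, 10.05 and 5.67. In chr17:35978093-36056145 they were 19.9, 103.03, 11.73, 6.8 and 29.07, and the last 4 of these lay within 3.09 kb. The run chr17:56723863-56904682 had values of 22.34, 14.9, 16.96, 14.9, 20.15 and 5.32. It was the only one of the 13 without a peak at or above 50.

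The run on chromosome 11, chr11:69393701-69567417, had values of 87.08, 20.15, 8.42, 5.21, 54.97 and 9.94. Its 4 middle peaks formed 2 close pairs, each of a stronger and a weaker peak, with gaps of 117 and 63 bp.

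**Figure D3:**
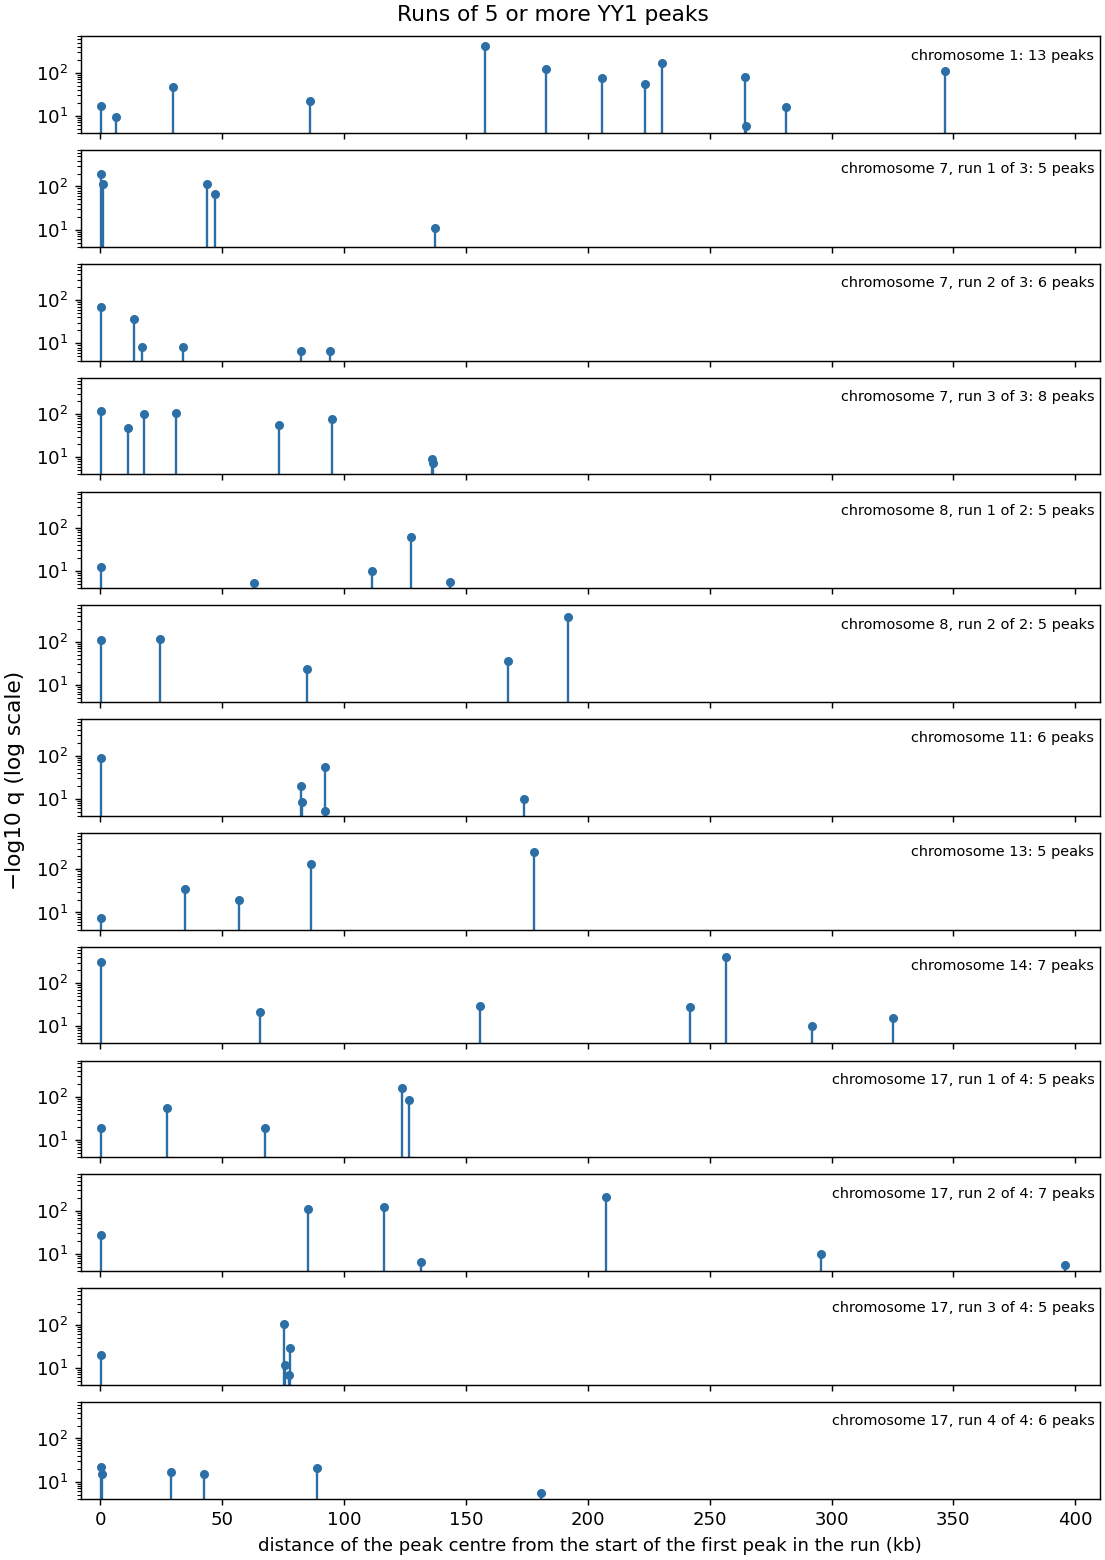
Each panel is 1 of the 13 runs of 5 or more peaks, with the distance from the start of its first peak in kb on the horizontal axis and the −log10 q of each peak on a log axis. Strong peaks stand side by side in some runs, such as the middle of the 13 peaks on chromosome 1, and far apart in others, such as the run of 7 on chromosome 14.

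The place of the strongest peak varied between runs. In the 46 runs of 3 or more peaks it was an inner peak in 23. The inner share of the peaks, taken run by run, added up to 20.6 runs. In the 13 longest runs it was an inner peak in 6, where the inner shares added up to 8.62 runs. In chr7:30875529-30955172 an end peak and an inner peak tied at 30.37, which was counted as an end.

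Neighbours both at or above 100 were found only in runs of 3 or more. There were 8 such pairs in 7 runs. Of these pairs, 7 were among the 70 neighbouring pairs in runs of 5 or more. The 8th was in a run of 3 on chromosome 7, between chr7:29551544-29551845 (143.33) and chr7:29610006-29610486 (214.83). None of the 174 runs of 2 had both peaks at or above 100, and 6 had both at or above 50. Peaks at or above 100 made up 7.76% of those in runs of 2 and 9.35% of all autosomal peaks. For 50 or more the shares were 17.5% and 17.3%. With so few peaks at or above 100 in runs of 2, nothing is read from the absence of such pairs.

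Of the 10 clustered peaks with the highest −log10 q, 7 had a nearest neighbour under 50, as did 405 of all 536 clustered peaks (75.6%). The highest value, 405.96, was shared by chr1:173152326-173152853, whose nearest neighbour had 119.23, and chr14:55236653-55237289, whose nearest neighbour had 28.01. For chr17:27341427-27341794 (402) the neighbour had 18.01. These 3 were followed by chr8:87380571-87381063 (370.26, neighbour 35.18).

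The next 3 of these peaks also had weak neighbours. They were chr8:19784427-19785032 (327.19, neighbour 7.38), chr14:54980311-54980724 (307.93, neighbour 21.24) and chr1:88421886-88422493 (289.21, neighbour 11). Of the last 3, chr3:88228913-88229291 (256.06) had a neighbour of 6.51. The neighbours were stronger for chr10:39977252-39977770 (257.9, neighbour 96.17) and chr13:55815729-55816176 (246.99, neighbour 136.82).

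The strength of the nearest neighbour was then taken for clustered peaks of each strength. Its median −log10 q was 11 for the 177 clustered peaks under 10, 16.6 for the 134 from 10 to 20 and 17.3 for the 102 from 20 to 50. It was 24.7 for the 63 from 50 to 100 and 20.15 (interquartile range 9.598 to 75.8) for the 60 at or above 100. Of those 60, 20 (33.3%) had a neighbour at or above 50 and 15 (25%) a neighbour under 10. Of the 177 under 10, 33 (18.6%) had a neighbour at or above 50 and 74 (41.8%) a neighbour under 10. For comparison, the 104 peaks at or above 100 that were not clustered had a nearest neighbour with a median of 13.4, at a median gap of 423 kb. Of these, 15 (14.4%) had a neighbour at or above 50. For the 636 peaks under 10 that were not clustered it was 93 (14.6%). By the rule, the nearest neighbour of a clustered peak is itself clustered, while that of a peak not clustered can be either. A value of 50 or more was held by 22.9% of clustered peaks and 14.9% of those not clustered. Peaks that are each other's nearest neighbour are also counted from both sides. Nothing is therefore read from the contrast between clustered peaks and the others.

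The 2 peaks of a pair were often unequal. In runs of 2, the stronger −log10 q was a median of 2.301 times the weaker. Across the 174 runs of 2, Spearman's rho between the first and the second peak along the chromosome was 0.14, and 0.071 with peaks ranked within their chromosome. By gap it was −0.40 under 1 kb (12 runs), 0.32 from 1 to 10 kb (19 runs) and 0.16 from 10 to 100 kb (143 runs). These points share 1 list, and no relation is read from values of this size and number. The largest ratio was 44.3, between chr8:19701434-19701533 (7.38) and chr8:19784427-19785032 (327.19). The next 4 were 39.3 for the pair with chr3:88228913-88229291, 27.1 with chr2:29904379-29904933 (176.7 against 6.51), 26.3 with chr1:88421886-88422493 and 26.02 with chr15:99482010-99482402 (169.41 against 6.51).

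**Figure D4:**
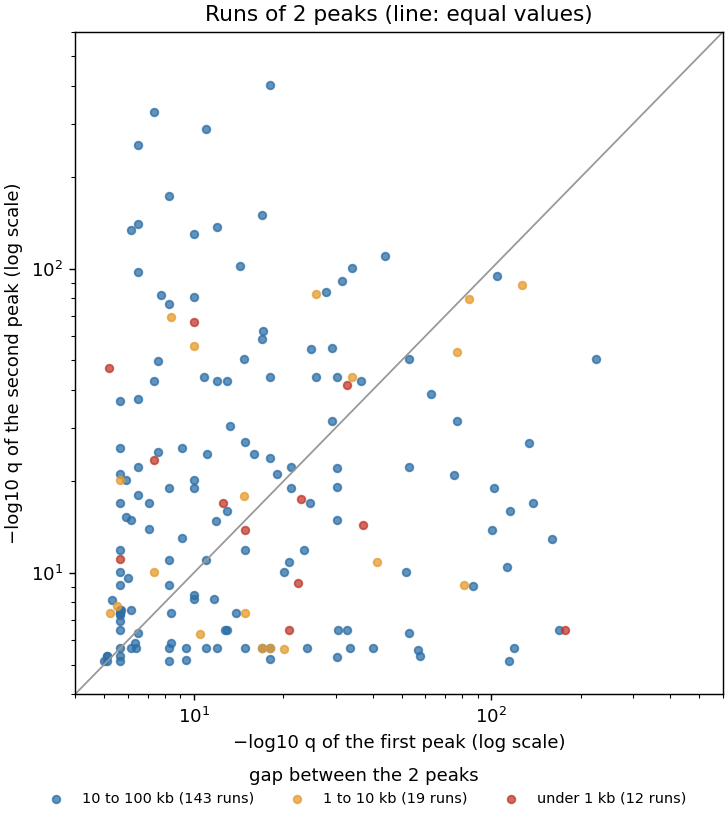
Each point is 1 of the 174 runs of 2 peaks, with the −log10 q of the first and second peak along the chromosome on log axes, coloured by gap, and the line marks equal values. Points spread widely on both sides of the line, and none lies above 100 on both axes.

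In pairs closer than 1 kb the median −log10 q of the stronger peak was 23.2 and of the weaker 9.65, and the median widths were 238.5 and 167.5 bp. The weaker peak was under 10 in 16 of the 32 pairs (50%), against 48.4% of all pairs and 56.25% of those 1 to 10 kb apart. Both peaks reached 20 in 2 of the 32 pairs. They were chr7:52104230-52105023 with chr7:52105147-52105643 (192.12 and 116.09) and chr8:113370516-113370783 with chr8:113370846-113371048 (32.76 and 41.42). Of the single peaks with a nearest neighbour under 1 kb away, 37.1% reached 20, against 33.3% of all autosomal peaks. With so few pairs, nothing is read from the count of 2. The stronger peak came first in 16 pairs and second in 16.

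These close pairs were compact. From the start of the first peak to the end of the second they spanned a median of 755.5 bp and at most 1413 bp. The gap was under 300 bp, the upper size of the sonicated chromatin, in 16 of the 32 pairs. It was narrower than the wider of its 2 peaks in 16. Whether such pairs are separate sites or parts of 1 enriched region was not tested.

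Among the 5 smallest gaps, the ratio of stronger to weaker −log10 q ran from 1.24 to 14.1. The smallest, 56 bp, lay between chr7:134655493-134655697 (9.15) and chr7:134655753-134655925 (7.37). A gap of 63 bp was found between chr11:69485711-69485873 (5.21) and chr11:69485936-69486174 (54.97), and in the chromosome 8 pair with values of 32.76 and 41.42. Next came a gap of 72 bp between chr1:173259079-173259498 (79.74) and chr1:173259570-173259669 (5.67). The fifth was 88 bp, between chr5:114221556-114221721 (10.05) and chr5:114221809-114222096 (66.87).

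The 2 triplets with gaps under 1 kb, singled out after their values were seen, were weak. On chromosome 5, from 22938854 to 22940201, the values were 14.9, 10.05 and 13.9. On chromosome 15, from 103070389 to 103071710, they were 5.85, 10.12 and 6.34.

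Pairs 1 to 10 kb apart included some of 2 strong peaks. Both reached 20 in 10 of these 32 pairs and both reached 50 in 6. From 10 to 100 kb both reached 20 in 59 of 252 pairs and 50 in 22. Under 1 kb the counts were 2 and 1 of 32. Of single peaks with a nearest neighbour 1 to 10 kb away, 50% reached 20 and 30% reached 50. These shares were 37.1% and 17.7% under 1 kb, and 41.5% and 22.7% from 10 to 100 kb. Among all autosomal peaks they were 33.3% and 17.3%. Since these shares differed between classes, nothing is read from the pair counts. Among the 6 pairs 1 to 10 kb apart with both at or above 50, chosen after their values were seen, were runs of 2. One was chr19:7016174-7016493 (84.13) with chr19:7025931-7026256 (79.74), and another chr8:124109343-124109746 (127.17) with chr8:124114224-124114424 (88.57). The median ratio of stronger to weaker was 2.40 under 1 kb, 1.93 from 1 to 10 kb and 2.35 from 10 to 100 kb, so the classes differed little in this measure.

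In 31 runs, all of 2 peaks, no peak reached 10. Peaks under 10 made up 37.6% of those in runs of 2 and 46.4% of all autosomal peaks. Of the 31 runs, 29 had gaps from 10 to 100 kb and 2 from 1 to 10 kb. Among all 174 runs of 2, the numbers were 143 and 19. The 31 included 8 of the 15 runs of any size on chromosome 10, 5 of 18 on chromosome 15 and 4 of 8 on chromosome 18. Clustered peaks under 10 made up 47.2%, 51.2% and 58.8% on these chromosomes, against 33.0% of all clustered peaks. At the other end, every peak was at or above 50 in 8 runs. They were 6 runs of 2 and 2 runs of 3, on chromosomes 3, 7, 8, 10, 17 and 19. A value of 50 or more was held by 22.9% of clustered and 17.3% of all autosomal peaks.

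By chromosome, the clustered share was 47.4% on chromosome 7 (46 of 97 peaks), 46.7% on chromosome 17 (42 of 90) and 40.4% on chromosome 8 (38 of 94). Chromosome 11 had the most clustered peaks, 59 of 161 (36.6%). The lowest shares were 16.4% on chromosome 14 (9 of 55), 17.9% on chromosome 16 (10 of 56) and 18.4% on chromosome 3 (18 of 98). Membership of neighbours is linked by the rule, so these shares carry no interval or test. The share also depends on how many peaks a chromosome has for its length, which was not taken into account.

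**Figure D5:**
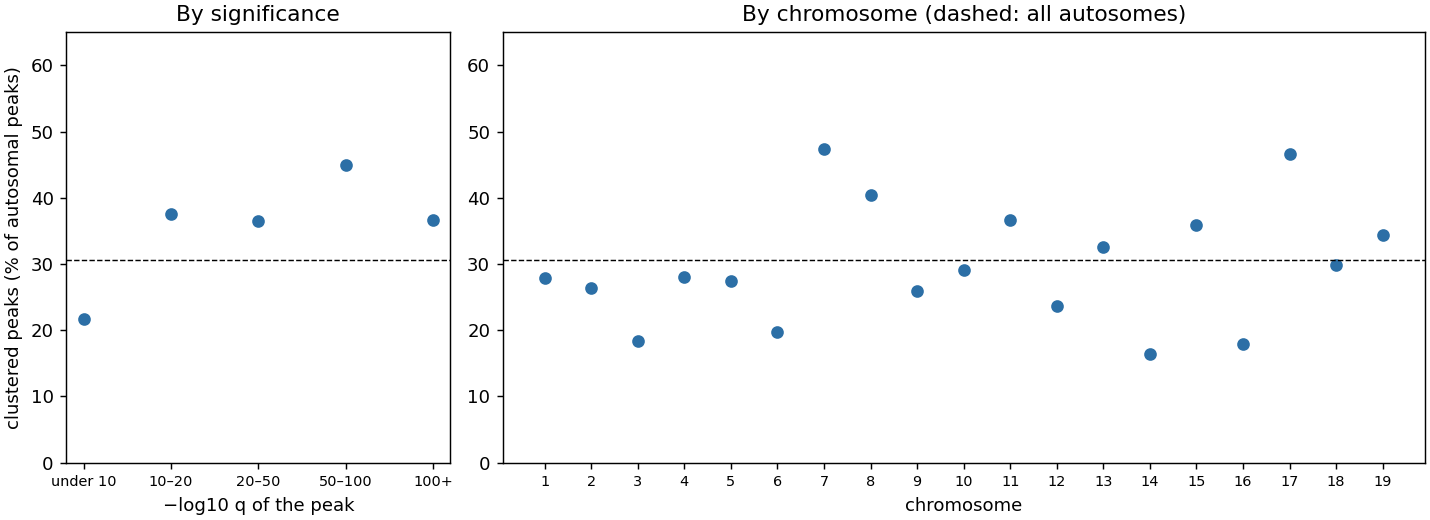
Points are the percentage of autosomal peaks that were clustered, by class of −log10 q (left) and by chromosome (right), with the share of all autosomal peaks, 30.6%, as a dashed line. Peaks under 10 lie below the line at 21.8%, and chromosomes 7 and 17 lie highest.

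On 18 of the 19 autosomes the clustered peaks had a higher median −log10 q than the others. The medians were 40.2 and 18.01 on chromosome 7, and 28.6 and 8.24 on chromosome 8. The exception was chromosome 18, with 7.57 for its 17 clustered peaks and 10.05 for the rest. On chromosome 15 the medians were 9.55 and 7.35, and 21 of its 41 clustered peaks were under 10. The share at or above 50 was lower among clustered peaks on chromosome 9 (13.3% against 16.3%) and chromosome 18 (5.88% against 15%). It was higher on the other autosomes, by little on chromosomes 3, 4 and 16. Membership and significance come from 1 call and chromosomes are not repeats, so nothing is read from the count of 18.

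A few regions made up much of what was clustered on some chromosomes. On chromosome 14 all 9 clustered peaks lay in 2 runs within chr14:54980311-55713867. On chromosome 10, 15 of 36 lay in 5 runs within chr10:79422719-80896129, and their median was 24.6, with 1 peak under 10. The other 21 on that chromosome had a median of 6.41, and 16 were under 10. These regions were chosen after their values were seen.

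Some runs lay near one another. Of the 220 runs, 105 (47.7%) had another run within 1 Mb, and they formed 38 groups with 274 peaks. Peaks that were not clustered had their nearest peak at median gaps of 307 to 527 kb over the 5 classes of −log10 q. Closeness within 1 Mb is thus not shown to be particular to runs. The median distance between successive runs was 2.98 Mb. The largest group by number of runs was chr19:4121359-7292163, with 8 runs and 17 clustered peaks over 3.17 Mb. As many peaks, in 4 runs, lay in chr17:32457608-34356941, over 1.899 Mb. The group chr2:29202181-30704175 consisted of 6 runs of 2 peaks. In chr11:3996614-6526280, 5 runs of 2 followed each other over 2.53 Mb with no other peak between them.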

How the data were processed

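YY1 ChIP-seq peaks of C2C12 myoblasts were analysed. MACS2 2.0.9 and the build mm9 are named in the submitters' processing notes. How reads were aligned, which control was used and where the q-value limit lay is not given here. The deposited values are the −log10 of each peak's q-value, per the file headers. Both samples hold the identical list, counted once. Commas were removed from 6 peak ends. Positions are printed as deposited, and their counting base (0 or 1) is unknown.

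Peaks on the 19 autosomes were sorted, the chromosome 17 block was removed, and runs were formed from gaps under 100 kb (Python 3.11.15, pandas 2.3.3). Run finding was tested on simulated lists. The members and lists were chosen with earlier results of these data known. Peaks given by position are the runs of 5 or more, the 10 highest values, the 5 smallest gaps, runs of 2 with both values at 100 or more, the 5 largest ratios and 3 pairs on each side of the limit, unless stated. The 8 alternatives changed the strength limit, the gap limit and its measure, the merging of close peaks, the block and the X chromosome.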

Additional observations from a re-analysis of the deposited data

How the results depend on the processing

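Of 80 alternative values, 55 stayed within 1.5 times the count reported or within the exact 95% binomial interval of the share or median (counting error only), and 25 moved. These intervals treat linked peaks of 1 list as independent, and the alternatives reuse the same peaks. They serve only to label the size of a change. A strength limit removes weak peaks, so counts fall and medians and the share at or above 50 rise by construction. It also raises the lowest possible weaker value, which narrows the possible ratios. A gap limit changes which peaks are linked. Keeping only peaks at or above the list's median −log10 q of 10.05 left 279 clustered peaks in 111 runs, 27 of them of 3 or more, and 15, 16 and 137 pairs in the 3 gap classes. The median −log10 q was then 30.37, the median width 246 bp and the share at or above 50 36.6%. With a limit of 20 there were 132 clustered peaks, 53 runs, 11 of 3 or more, and 2, 12 and 65 pairs, with medians of 54.87 and 317 bp, a share of 58.3% and a ratio in runs of 2 of 1.86. Merging peaks closer than 1 kb left 0 such pairs by construction. A gap limit of 50 kb gave 343 clustered peaks, 144 runs and 135 pairs over 10 kb apart, and one of 200 kb gave 823 clustered peaks and 95 runs of 3 or more. No value moved when distances were taken between centres, when the block was kept or when the X chromosome was added. These settings gave 536, 540 and 551 clustered peaks, so they could move little. Pair counts in gap classes wholly under a changed gap limit stayed by construction, as did those from 1 kb up after merging. The 55 values that stayed are therefore no measure of how robust the results are. No paired analysis was possible because there was a single list, which also left no replicate to omit. Read depth is unknown, so the absence of a neighbour cannot be read as absence of binding.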
